A study of Caenorhabditis elegans with 2 samples.

Results

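The regions described here are the 526 final ALY-2 ChIP-seq peaks of L1 larvae whose summit lay in the promoter window of a single protein-coding gene, out of 1446 final peaks (36.4%). A promoter window ran from 1000 bp upstream to 200 bp downstream of a gene's annotated 5′ end (Ensembl annotation, genome build WBcel235, which is ce11), so each of these summits can be assigned to 1 coding gene by position. They were chosen by 2 measured values, a signal high enough for the authors' final list and the summit coordinate. Neither is a finding about them, and no p-value is given. Of the other final peaks, 291 had the summit in windows of 2 or more coding genes and 629 in none.

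Both samples were whole L1 larvae of Caenorhabditis elegans, the first larval stage, as pooled males and females of unknown age. The strain, OP217, carries the unc-119(ed3) III mutation and the insertion ddIs172, which targets aly-2 and gives an eGFP fusion. One label field gives the antibody as aly-2, another the target as eGFP-aly-2. The 2 biological replicates had the same genotype and stage and form 1 group, and the labels do not say how the cultures were kept apart. No untagged or input library was used here, and because whole animals were used, the tissue in which a peak arose cannot be told apart. Libraries were labelled with a size range of 150 to 350 bp.

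ALY-2 is one of the worm's ALY/REF proteins. In other animals ALY/REF proteins are adaptors of the TREX complex: they are loaded on nascent messenger RNA in the nucleus and help to pass it to the export receptor. ChIP-seq of such a protein recovers DNA crosslinked near it, whether it touches DNA directly or through RNA and other proteins. In C. elegans many transcripts receive a spliced leader in place of their original start, so an annotated 5′ end is often a trans-splice site that lies downstream of where transcription began. Genes also lie close together, and a promoter window may hold the end of the neighbouring gene.

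The sequences around 6 summits of high signal are shown because the results below turn on them and they differ in what surrounds them. Each holds the summit base and 50 bases on either side from the RefSeq WBcel235 genome, 5′ to 3′ on the strand of its gene, with the 11 bases centred on the summit in capitals.
cdc-48.1 (WBGene00007352, chrII:10563521-10563621, minus strand): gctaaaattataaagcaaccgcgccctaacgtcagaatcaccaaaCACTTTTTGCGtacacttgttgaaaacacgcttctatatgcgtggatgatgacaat
fbxb-72 (WBGene00019243, chrV:724138-724238, minus strand): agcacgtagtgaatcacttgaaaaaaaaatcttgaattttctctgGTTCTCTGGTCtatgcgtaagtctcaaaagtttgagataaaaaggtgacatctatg
rpl-3 (WBGene00004414, chrIII:3867534-3867634, plus strand): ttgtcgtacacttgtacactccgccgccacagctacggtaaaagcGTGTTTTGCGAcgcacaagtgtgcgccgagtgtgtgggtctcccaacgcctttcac
rpl-35 (WBGene00004449, chrIII:7854625-7854725, plus strand): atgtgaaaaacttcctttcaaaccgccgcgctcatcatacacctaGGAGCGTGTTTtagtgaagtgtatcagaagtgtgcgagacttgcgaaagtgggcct
pmp-2 (WBGene00004059, chrII:6888445-6888545, minus strand): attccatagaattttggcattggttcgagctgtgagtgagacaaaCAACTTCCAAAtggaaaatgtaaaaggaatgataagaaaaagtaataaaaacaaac
ikke-1 (WBGene00011299, chrIII:9051389-9051489, minus strand): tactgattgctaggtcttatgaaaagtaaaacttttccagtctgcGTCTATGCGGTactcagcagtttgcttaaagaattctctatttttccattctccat
The cdc-48.1 stretch also lies in the window of a small nucleolar RNA gene. The rpl-3 and rpl-35 stretches lie upstream of ribosomal protein genes, at 56.4% and 47.5% GC. The fbxb-72, pmp-2 and ikke-1 stretches, at 34.7%, 31.7% and 36.6% GC, lie shortly past the 3′ end of another coding gene.

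The 526 summits fell in the windows of 514 genes, which is 2.57% of the 19973 coding genes. For comparison, 3.02% of coding genes (603) had a final summit in a window shared with another coding gene. Of the 3741 peaks of the pooled list with their summit in 1 coding window, 14.1% were in the final list, beside 9.22% of all 15675 pooled peaks. Because the final list holds the pooled peaks of highest signal, these shares describe the choice of members. The remaining 3215 pooled peaks in 1 coding window are called lower-signal peaks and serve as the comparison below. Signal is the value that the authors' peak caller gave each peak. Its scale is not stated, the read depth is unknown, and values are compared only within 1 list.

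The signal of the 526 peaks ran from 42.7 to 515.5 with a median of 58.7 and quartiles of 48.8 and 80.2. The median was 62.1 for final peaks in shared windows and 57.0 for those outside coding windows. Peaks in a single window made up a similar share of every stretch of the ranked list: 36.0% of ranks 1 to 50, then 36.0% of the ranks up to 200, 38.0% up to 500, 35.8% up to 1000 and 36.1% up to 1446. At the lower edge, the weakest members were at vars-1 (42.76), F35A5.8 (42.72) and mrps-35 (42.71). The first lower-signal peaks below them were at F54D10.5 (42.70), R13A5.7 (42.69) and W06H8.6 (42.57). The signal edge of the set therefore separates peaks that differ in the last digit.

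The highest peak was upstream of cdc-48.1, which encodes the AAA ATPase that extracts ubiquitin-marked proteins from complexes and membranes. It spanned chrII:10563457-10563670 with its summit 164 bp upstream of the 5′ end, and had a signal of 515.5 in the pooled list, 248.6 in replicate 1 and 265.6 in replicate 2, rank 1 in each. The window of the small nucleolar RNA gene C06A1.9 also holds this summit.

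fbxb-72, an F-box gene, had the second highest signal, 320.5, at 236 bp upstream of its 5′ end. That summit lay 144 bp beyond the end of icl-1, the glyoxylate cycle gene that lets larvae build sugars from fat. A second fbxb-72 summit, of signal 169.4 at 888 bp upstream, lay inside the icl-1 gene body. The first summit had rank 18 in replicate 1 (signal 101.5) and rank 3 in replicate 2 (218.9). The second had ranks of 47 (83.3) and 35 (92.2).

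The ribosomal protein genes rpl-3 and rpl-35 came next among those of highest signal with no coding 3′ end within 200 bp and no structural RNA window. rpl-3, which encodes uL3 of the large subunit, had a signal of 272.3 at 270 bp upstream, with 156.1 in replicate 1 (rank 3) and 114.6 in replicate 2 (rank 20). rpl-35, which encodes uL29, had 268.3 at 459 bp upstream, with 144.4 (rank 6) and 121.6 (rank 17). Both ranked higher in replicate 1 than in replicate 2. The mitochondrial respiratory gene cox-5A, a subunit of cytochrome c oxidase, had 206.6 at 291 bp upstream, with 89.9 (rank 34) and 111.1 (rank 25). dld-1, the dihydrolipoyl dehydrogenase shared by several mitochondrial enzyme complexes, had 175.2 at 240 bp upstream, 179 bp past nspg-9. Its rank was 36 in both replicates, with signals of 88.7 and 90.6.

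Several of the highest peaks lay just past the end of a neighbouring gene. The ufbp-1 summit, with a signal of 186.5 and ranks of 42 and 27, was 10 bp past the 3′ end of hsp-110, a chaperone gene. The kel-3 summit, with 171.5 and ranks of 13 and 124, was 16 bp past ant-1.1, which encodes an ADP/ATP carrier of mitochondria. The Y49A3A.3 summit, with 185.5 and ranks of 87 and 19, was 50 bp past vha-13, a subunit gene of the vacuolar proton pump, and 62 bp inside its own gene. The aex-5 summit, with 176.9 and ranks of 14 and 59, was 85 bp past unc-54, the main myosin heavy chain gene of body wall muscle. The pmp-2 summit, with 234.8 and ranks of 11 and 14, was 58 bp past acer-1, and the ikke-1 summit, with 209.3 and ranks of 19 and 23, was 157 bp past R107.5. In all, 8 of the 15 members of highest signal were within 200 bp past the 3′ end of another coding gene.

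2 further members of the top 15 lay by genes for spliced leader RNA, the short exon that is joined to messenger RNA by trans-splicing. egg-5, which encodes an inactive phosphatase of the egg-to-embryo transition, had 307.9 at 598 bp upstream, with ranks of 5 and 6, in the window of sls-2.4. H41C03.3 had 248.3 at 927 bp upstream, with ranks of 27 and 5, in the window of sls-2.1. Rank 27 is that of a replicate 1 peak shared with the second H41C03.3 summit. Spliced leader genes have near-identical copies, and the sources used here do not say how the authors placed reads that fit several copies.

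**Figure D1:**
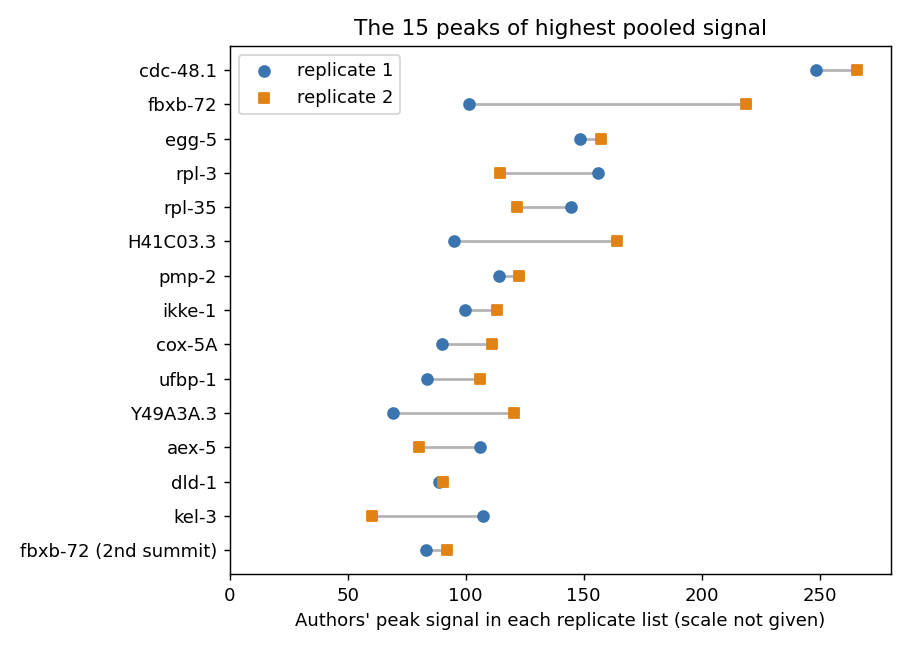
Signal of the 15 members of highest pooled signal in the 2 replicate peak lists (x axis, the authors' value on a scale that is not given, one row per peak named by its gene; the grey line joins the replicates, and there is no error bar on a single peak). cdc-48.1 is far right of the others in each list, at 248.6 and 265.6. The drawn gap is widest for fbxb-72, 101.5 against 218.9. Each list has its own scale, so gaps between the lists cannot be read as replicate differences.

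Relative to the 5′ end, the median summit was 233.5 bp upstream, with quartiles at 409 and 123 bp upstream. The same quantity was -233 bp in the 1446 highest peaks of replicate 1 and -238.5 bp in those of replicate 2, a mean of -235.8 ± 3.89 bp (SD, n = 2). Upstream of the 5′ end lay 479 of 526 (91.1%), while 35 were in an exon and 12 in an intron of the gene itself. Lower-signal peaks in 1 window had a median of -324 bp, and 84.9% of them were upstream. Position is part of the rule, and these values are a description.

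Measured from the annotated 5′ end, the summits were more concentrated than lower-signal peaks, though many also lay near a neighbouring gene, as given below. Between 100 and 200 bp upstream lay 24.9% of members and 11.9% of lower-signal peaks. Between 200 and 400 bp upstream lay 28.9% and 19.8%. Within 300 bp upstream lay 280 members (53.2%) and 1046 lower-signal peaks (32.5%). In the 100 bp just upstream of the 5′ end, the shares were 10.65% and 10.98%, and from 800 to 1000 bp upstream they were 6.08% and 13.3%. The position did not follow the signal within the members: from the highest to the lowest of 4 equal groups by signal, the medians were -243, -233, -210 and -239 bp.

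**Figure D2:**
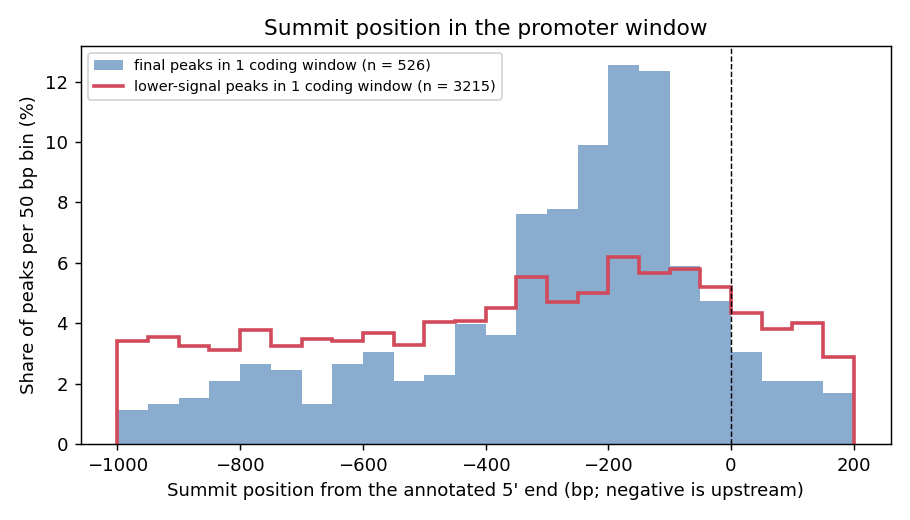
Share of peaks (y axis, percent per 50 bp bin) by summit position from the annotated 5′ end (x axis, bp, negative is upstream) for the 526 final peaks in 1 coding window (filled) and the 3215 lower-signal peaks in 1 coding window (line). The final peaks pile up between 100 and 350 bp upstream, while the lower-signal peaks are spread more evenly.

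At the edges of the window, the farthest upstream members were ufbp-1 (second summit, -999 bp), fbxb-58 (-995 bp) and dhs-8 (-992 bp). The farthest downstream were ssup-72 (+198 bp), T20F5.5 (+189 bp) and F54A3.2 (+178 bp). Just outside, final summits lay 204 bp downstream at cup-5, 207 bp at ech-1.2 and 209 bp at Y56A3A.22.

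Neighbouring genes were part of many of these windows. The next gene upstream pointed the same way for 344 members (65.4%), compared with 54.6% of all coding genes, and such a neighbour lay within 1000 bp for 278 members (52.9%), compared with 28.5%. Windows of closely spaced divergent genes overlap, so the rule itself removes many divergent pairs, and these shares describe the choice in part. In 201 members the summit lay in the gap to a same-direction neighbour at most 1000 bp away. When each gap was cut at its middle, 85 of them (42.3%) were on the side of their own 5′ end. The other 57.7% were on the side of the neighbour's 3′ end. These shares were not computed for lower-signal peaks. Among the members, 143 (27.2%) had the summit within 200 bp past the 3′ end of another coding gene, beside 499 of 3215 lower-signal peaks (15.5%) and 9 of 291 final peaks in shared windows (3.09%). Over 4 equal groups by signal, that share was 35.6% in the highest and 24.4%, 26.0% and 22.7% in the others. In 174 members (33.1%) the 3′ end of another coding gene was nearer than the 5′ end that assigned the peak, against 30.7% of lower-signal peaks.

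Conversely, fewer members than lower-signal peaks were inside the body of another coding gene. There were 74 (14.1%), of which 46 were exonic and 28 intronic, beside 23.7% of lower-signal peaks. The cdk-5 summit is one of them: it had a signal of 163.8, ranks of 63 and 40, and lay 71 bp upstream of the gene for this cyclin-dependent kinase within kel-3. Windows of genes for structural RNA (the same -1000 to +200 bp) held 39 member summits (7.41%). Of these, 24 were by small nucleolar RNA genes, 11 by snRNA genes and 4 by tRNA genes, with 0 by genes annotated as rRNA or microRNA. The snRNA genes include the spliced leader genes sls-2.1, sls-2.4 and sls-2.7. This share was not computed for lower-signal peaks or for all promoters, so whether 7.41% is unusual cannot be told. One summit, at eif-2Bgamma, lay in the window of mir-1831, which the annotation used here classes as snRNA. A total of 305 members (58.0%) lay in no structural RNA window, outside every other coding gene, and nearer to their own 5′ end than to the 3′ end of another coding gene.

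12 genes had a pair of summits in their window alone, and 0 had 3. The spacing ran from 199 to 745 bp with a median of 221.5 bp, and 8 of the 12 pairs were no more than 250 bp apart. By summed signal the first 5 were fbxb-72 (489.9), egg-5 (454.0), H41C03.3 (391.1), rpl-3 (343.2) and ufbp-1 (248.1). The second rpl-3 summit was much weaker, 70.9 at 793 bp upstream, and the second egg-5 summit had 146.1 at 797 bp upstream. Some close pairs were not resolved in a replicate: the paired summits of H41C03.3 and eel-1 matched the same peak of replicate 1, those of F38E11.9 and Y71F9AL.8 the same peak of replicate 2, and those of lin-59 the same peak in each replicate. Only 2 member genes also had a final summit in a shared window.

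Across chromosomes, members per Mb of window that belongs to 1 coding gene alone were 39.6 on chromosome I and 39.7 on III, 29.2 on II and 30.1 on IV, and 17.8 on V and 17.6 on X. As shares of coding genes these were 3.51% and 3.52%, 2.73% and 2.77%, and 1.66% and 1.90%. Chromosomes I and III were thus about level and above V and X on both scales. Over all chromosomes the density was 27.5 per Mb in single windows, 123 per Mb in shared windows and 7.99 per Mb elsewhere.

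The genes were grouped into 28 lists by name pattern, each read beside the 2.57% of all coding genes. A pattern misses genes of like function that have other names, so each count is a count of names. By product, mog-4, syf-3 and let-858 are splicing factors, and fbxl-2, F48G7.4 and K03H1.11 have an F-box domain. F38E11.9 has a nuclear receptor domain, and F59C6.18 encodes an FMRF-like peptide. These members are in no list. A gene counts for its list by window position alone, and summits in or just past another coding gene were not set apart. For example, the lsm-5, mrpl-32 and rps-26 summits lay in exons of acs-2, rpn-3 and tmem-107. Those of col-63 and sec-3 lay 30 bp past ceh-8 and 113 bp past ztf-13. Lists of translation, mitochondria and nuclear transport held the highest shares. Some of these rest on few genes, such as 2 of 11 for mitochondrial import and 2 of 14 for mRNA export, and their counting error was not computed. Of 47 genes named as large ribosomal subunit proteins, 9 (19.2%) had a summit in their window alone: rpl-3 and rpl-35 above, then rpl-11.2 (119.9 at 350 bp upstream, ranks 135 and 114), rpl-24.2 (116.5, ranks 88 and 251), and 5 others of lower signal. rpl-24.2 counts by its name: its product is a putative ribosome biogenesis protein, and its summit lay in an intron of C03D6.1. A further 22 genes of the list had a final summit only in a shared window. The large subunit list as a whole had a median of 407 bp of unshared window, against 1201 bp over all coding genes. Of 31 small subunit genes, 4 (12.9%) were members: rps-17 (75.9), rps-26 (54.3), rps-4 (48.1) and rps-11 (43.2), and 15 more were in shared windows only.

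Other genes of protein synthesis were also above the background. Translation factors had 5 of 41 (12.2%), led by eif-3.B (104.6) and eif-3.C (99.1), subunits of the initiation factor that prepares the small ribosomal subunit, eef-1A.2 (81.2), the elongation factor that brings charged tRNA to the ribosome, and eif-2Bgamma (76.9). Nucleolar and rRNA-processing genes had 3 of 16 (18.8%): rrp-8 (76.6), ruvb-2 (64.85) and nol-56 (56.4), whose protein is a core part of box C/D ribonucleoproteins. The nol-56 and ubl-1 summits also lay in windows of small nucleolar RNA genes. Aminoacyl-tRNA synthetases had 3 of 32 (9.38%): fars-3 (57.2), kars-1 (45.4) and vars-1 (42.8).

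Mitochondrial genes followed. The respiratory chain and ATP synthase list had 6 of 38 (15.8%), with cox-5A (206.6), cox-5B (99.2), the succinate dehydrogenase subunit gene sdha-1 (64.6) and the cytochrome gene cyc-1 (63.6), highest. The count fell to 3 when the windows of all genes other than piRNA genes had to be empty of the summit; sdha-1 and cox-6A lay in windows of a small nucleolar RNA and an snRNA gene. Mitochondrial ribosomal proteins had 7 of 70 (10%), led by mrpl-28 (124.0), mrpl-55 (82.9), mrpl-32 (77.5) and mrpl-15 (67.9). Protein import had 2 of 11 (18.2%), tomm-20 (105.8), part of the outer membrane receptor, and tin-9.1 (65.0), an intermembrane chaperone. The vacuolar proton pump had vha-12 (91.9) and vha-11 (46.1), 2 of 20 (10%), and 1 in the 1446 highest peaks of replicate 1.

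RNA processing and transport, the process in which ALY/REF proteins take part, had several members. Of 14 mRNA export genes, 2 (14.3%) were members: nxt-1, the partner of the main mRNA export receptor, with 77.8 at 80 bp upstream and ranks of 733 and 311, and thoc-5, of the THO complex, with 49.8 at 77 bp upstream and ranks of 713 and 2103. The nxt-1 summit was also 69 bp past trap-1. In the 1446 highest peaks of replicate 2 the count was 1. Nuclear pores and transport had 5 of 40 (12.5%), with npp-19 (83.0), imb-3 (72.3), ima-2 (65.8) and npp-20 (45.4) highest. Splicing factors, by name pattern, had 4 of 53 (7.55%): lsm-5 (130.3), snr-4 (118.3), snrp-3 (98.5) and rsp-6 (59.8). For snr-4 an snRNA gene window holds the summit too.

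The ALY genes and the strain's marker gene were looked up separately. aly-1, aly-3 and unc-119 had 0 final summits. aly-2 itself had 1, of signal 64.55 and rank 585, 343 bp upstream, but in the windows of 3 coding genes, so it is not a member.

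The other lists of broadly used genes ranged from 3.08% to 9.38%. The cell cycle and replication list had 6 of 64 (9.38%), cdc-48.1 (by its name prefix) and cdk-5 above, then efl-1, an E2F factor (82.5), and mcm-10 (79.1), of the replication machinery. Proteasome genes had 3 of 33 (9.09%), all low: pbs-3 (48.2), rpn-11 (47.8) and rpt-1 (47.8), and 1 in the highest peaks of replicate 2. The ubiquitin list had 3 of 35 (8.57%): ubl-1 (67.5), ubc-3 (52.3) and ubc-7 (46.1). Membrane traffic had 6 of 88 (6.82%), led by vps-4 (86.7), the ATPase that recycles ESCRT filaments, vps-37 (85.1), sec-3 (79.9) and sec-24.1 (76.8). RNA polymerase and general factors had 3 of 59 (5.08%): mdt-22 (67.4), ttb-1, which encodes TFIIB (64.5), and taf-8 (50.8). The cytoskeleton list had 2 of 39 (5.13%), tba-2 (73.7) and klp-13 (53.0). Chaperones were near the background, with hsp-1 (124.8), an Hsp70, and dnj-9 (107.7), 2 of 65 (3.08%), while 16 more had a summit only in a shared window. Only 1 chaperone gene was left when the windows of all genes other than piRNA genes counted.

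The remaining lists, of genes many of which are used in few cells or conditions, had shares of 0% to 1.59%, and for the smaller ones, such as histones and ceh homeobox genes, a single member is close to the background. Chemoreceptors had 3 of 1364 (0.220%): srg-45 (72.7), srbc-58 (68.9) and sre-23 (54.4). F-box genes named fbxa, fbxb or fbxc had 2 of 322 (0.621%), fbxb-72 (320.5) and fbxb-58 (102.3), and 1 in the highest peaks of replicate 2. Nuclear hormone receptors had nhr-49 (64.3), a regulator of fat use, and nhr-1 (55.3), 2 of 269 (0.743%). Collagens had col-63 (55.0), 1 of 156 (0.641%), histones his-37 (116.9), 1 of 72 (1.39%), insulins and neuropeptides ins-39 (113.3), 1 of 140 (0.714%), and ceh homeobox genes ceh-20 (45.1), 1 of 63 (1.59%). With counts this low the replicates differed: collagens had 0 and 2 in the highest peaks of replicates 1 and 2, histones 2 and 1, and ceh genes 1 and 0. The collagen count was also 0 when the windows of all genes other than piRNA genes counted. Histone genes have near-identical copies. C-type lectins had 0 of 240, a count that allows at most 1.25%, and P450 and UGT genes 0 of 141, which allows at most 2.13%, for counting error only. The median unshared window was 1201 bp for chemoreceptors, F-box genes, collagens and nuclear hormone receptors, but 516 bp for histones. Over all lists together 88 of 3562 genes (2.47%) were members, and 426 of the 16411 genes in no list (2.60%).

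**Figure D3:**
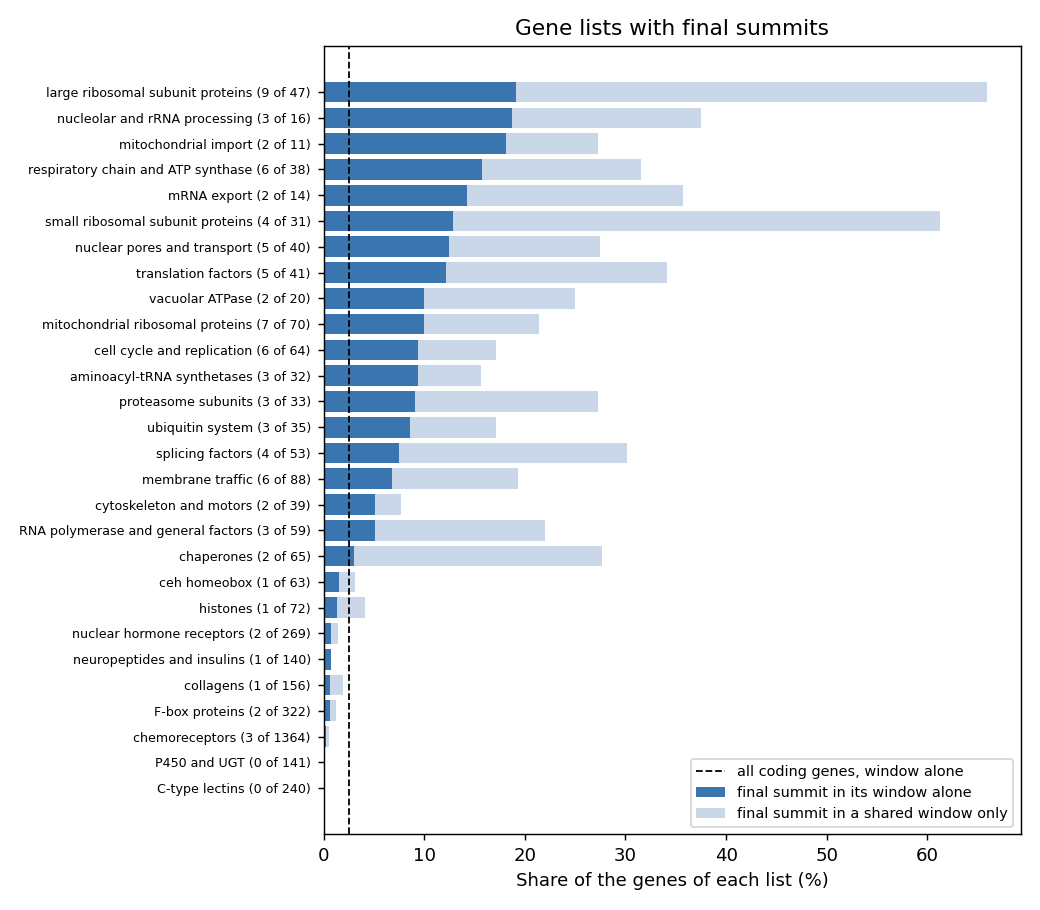
Share of the genes of each list (x axis, percent) with a final summit in their window alone (dark bars) or only in a window shared with another coding gene (light bars), with the count of the dark bar beside each name. The dashed line is the 2.57% of all coding genes; lists for ribosomes, mitochondria and nuclear transport extend past it, and lectins and P450 and UGT genes are at 0.

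The members were called on both replicates together, so finding them in each replicate is no independent repeat. All 526 overlapped a peak of replicate 1 by at least 1 bp and 524 a peak of replicate 2. The 2 without one in replicate 2 were a summit of C53D5.5 (signal 55.6) and dcap-1, a decapping factor gene (44.2). The replicate lists hold 26798 and 25463 peaks with background peaks included, so overlap alone is a weak criterion. Median distances from the final summit to the nearest replicate summit were 10 bp in replicate 1 and 7 bp in replicate 2, and 455 and 461 of the summits were within 50 bp.

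Ranks by signal varied far more than presence. Among the 1446 highest peaks of each replicate were 414 members (78.7%) in replicate 1 and 413 (78.5%) in replicate 2, and 318 (60.5%) in both. The last share was 62.5% for final peaks in shared windows and 55.2% for those outside coding windows. By signal it fell steeply across the members, from 99.2% in the highest of the 4 groups through 84.7% and 47.3% to 10.6% in the lowest. Signal in the pooled list comes from both replicates, so these groups and the ranks are not independent. Of the 524 members with a rank in both lists, 266 had ranks within 2-fold of each other and 71 (13.5%) were more than 5-fold apart. Replicate 1 ranked 264 higher and replicate 2 ranked 256 higher. Spearman's rho of the ranks, as a description over peaks that share libraries, was 0.431 for members, 0.452 in shared windows and 0.379 outside coding windows.

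Among the 100 members of highest signal, the 3 whose rank was most in favour of replicate 2 were prmt-5, F38E11.9 and kin-14. prmt-5, an arginine methyltransferase gene, had a signal of 31.6 (rank 628) in replicate 1 and 97.2 (rank 31) in replicate 2. F38E11.9 had rank 1028 against 70 and kin-14, a tyrosine kinase gene, 341 against 55. In the other direction were F59C6.18, kel-3 (13 against 124) and mrck-1 (69 against 597). For F59C6.18 and F38E11.9 the peak with the nearest summit was not the strongest that overlapped: the strongest in replicate 2 had rank 173 beside 295 in replicate 1 for F59C6.18, and that in replicate 1 had rank 100 beside 70 in replicate 2 for F38E11.9. The large gap for these pairs thus depends on which replicate peak is matched.

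Taking the 1446 highest peaks of each replicate as the list in its own right, 509 peaks of replicate 1 and 492 of replicate 2 had their summit in 1 coding window, a mean of 500.5 ± 12.0 (SD, n = 2), or 34.6% ± 0.831. These covered 500 and 479 genes, of which 315 were in both, 63.0% of the first and 65.8% of the second. Of the 514 member genes, 313 were found in both, and 19 in neither.

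**Figure D4:**
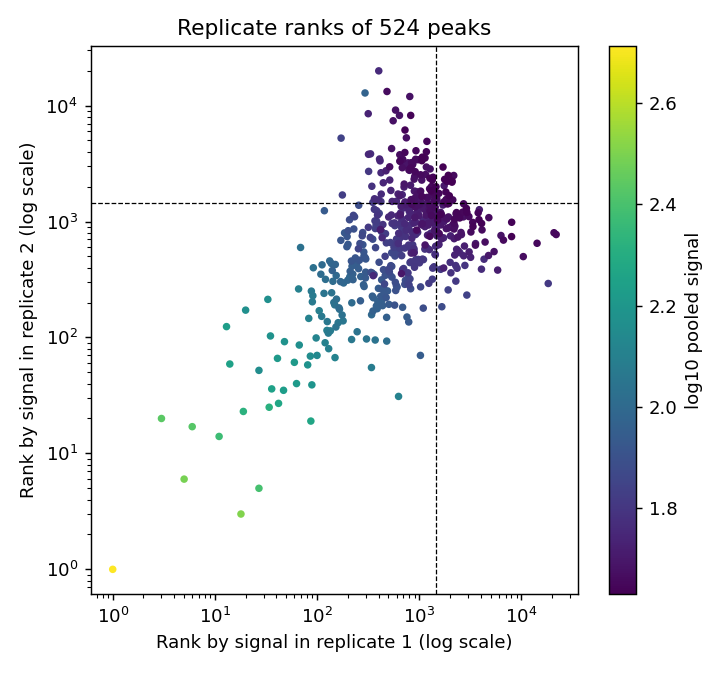
Rank by signal in replicate 1 (x axis, log scale) against rank in replicate 2 (y axis, log scale) for the 524 members with a peak in both, coloured by log10 of the pooled signal. Dashed lines mark rank 1446; the strongest peaks are near the origin in both replicates, and weak peaks spread across both lines.

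The 200 bp around the summits had a median GC content of 39.0% (quartiles 35.0% and 44.0%), the same as the 39.0% of final peaks in shared windows. Final peaks outside coding windows had 40.5% and all final peaks 39.5%, so the value is not particular to the members. Lower-signal peaks in 1 window had 34.0%, and the equivalent stretch of every coding promoter, taken 234 bp upstream, 33.5%. In the highest peaks of each replicate the median was 39.5% and 38.0%, or 38.8% ± 1.06 (SD, n = 2). The median of lower-signal peaks was not computed per replicate, so this SD does not measure the spread of the difference from them. The 305 members set apart above, by structural RNA windows, other gene bodies and the nearer gene end, had 39.5%. Some of these still lay close to a neighbouring gene, such as aex-5 at 85 bp past unc-54.

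11 short sequence words were counted on both strands in the same 200 bp, and a match is a description of letters only. GAGAGA was present in 166 members (31.6%), 21.3% of final peaks in shared windows, 19.5% of lower-signal peaks and 13.3% of all coding promoters, and in 38.0% of those 305 members. CGCGAA was present in 84 members (16.0%), a similar 16.5% of final peaks in shared windows, 5.51% of lower-signal peaks and 4.70% of promoters. It was present in 27.3% of the highest of the 4 signal groups against 12.2%, 11.5% and 12.9% of the others. TATAAA, in 18.3% of members, 23.6% of lower-signal peaks and 24.3% of promoters, and a run of 8 A, in 17.3%, 24.3% and 23.9%, were less frequent in members. The E2F-type word TTTCCCGC was in 2.09%, 1.28% and 1.19%, GATAAG in 7.22%, 8.80% and 9.10%, CACGTG in 3.42%, 3.76% and 3.11%, and CCAAT in 29.7%, 34.8% and 33.9%. GAANNTTC, the unit of heat shock elements, was in 11.6%, 12.2% and 13.5%, TTTTCAG in 16.0%, 18.4% and 18.0%, and CTCCGCC in 2.09%, 2.15% and 2.51%. Members also had a higher GC content than lower-signal peaks, and its part in the shares of words was not tested.

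Members that hold GAGAGA near the summit are shown, chosen after the word shares were seen, as the 3 of highest signal that could be printed. Each again has 50 bases on either side of the summit, from the RefSeq WBcel235 genome, 5′ to 3′ on the gene's strand, with GAGAGA or its reverse complement TCTCTC in capitals. They are upstream of cdk-5, of lin-9, a member of the DREAM complex that represses transcription (117.7), and of K12H4.5 (111.1).
cdk-5 (WBGene00000407, chrIII:13466363-13466463, minus strand): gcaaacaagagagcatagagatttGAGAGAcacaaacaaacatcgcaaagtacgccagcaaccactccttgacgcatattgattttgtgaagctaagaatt
lin-9 (WBGene00002998, chrIII:8904279-8904379, minus strand): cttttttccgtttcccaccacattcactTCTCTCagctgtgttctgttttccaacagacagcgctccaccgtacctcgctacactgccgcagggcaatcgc
K12H4.5 (WBGene00019680, chrIII:8043937-8044037, plus strand): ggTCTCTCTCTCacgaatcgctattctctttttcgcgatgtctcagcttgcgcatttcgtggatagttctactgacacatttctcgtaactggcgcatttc
The K12H4.5 match is an overlapping run of the word.

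Sequences with CGCGAA or its reverse complement TTCGCG, in capitals, are shown likewise for 2 members, in the windows of nspc-17 (148.2, 781 bp upstream) and cyn-1, a peptidyl-prolyl isomerase gene (118.9, 125 bp upstream).
nspc-17 (WBGene00008359, chrX:14525912-14526012, minus strand): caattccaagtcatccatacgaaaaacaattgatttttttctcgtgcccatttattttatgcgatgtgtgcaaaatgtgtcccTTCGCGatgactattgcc
cyn-1 (WBGene00000877, chrV:14355901-14356001, plus strand): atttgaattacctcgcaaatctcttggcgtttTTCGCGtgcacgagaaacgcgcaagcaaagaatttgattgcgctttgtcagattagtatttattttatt
In members with GAGAGA the word was a median of 37 bp from the summit, and in members with CGCGAA 39 bp. Only the 200 bp around the summit was searched, which bounds these distances. They were not computed for other peaks, so they do not show that the words gather at the summit. Members with CGCGAA had a median signal of 71.3, those without it 57.6. Members with GAGAGA had 57.4, those without it 60.0.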

How the data were processed

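Peak lists were deposited by the authors for each of 2 replicates, for both pooled and as a final list thresholded on the irreproducible discovery rate, per the labels and the deposited description files. The sources used here do not name the aligner, the peak caller, their versions or the depth. The deposited signal value per peak, from the authors' caller, was used only within a list. The lists on ce11 were used; chromosome names and lengths matched WBcel235. The ce10 lists were not used.

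Summits were placed in windows of coding genes (Ensembl release 115). A replicate match was the overlapping peak (at least 1 bp) with the nearest summit. GC content and words used 200 bp of the RefSeq genome around the summit. Functions were checked on simulated peaks with known answers. Named genes were the 15 members of highest signal, up to 4 per list by signal, the largest rank differences, pairs, and the members at each edge; others, such as dcap-1, cox-6A and the genes beside a summit, were chosen after their values were seen. The members and the gene lists were chosen with earlier results of these data known. With 1 group of 2 replicates, which may differ only technically, no tests were made. Software was Python 3.11.15, pandas 2.3.3, numpy 2.4.6 and matplotlib 3.10.9. One member that met the rule for printed sequences is not reported here.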

Additional observations from a re-analysis of the deposited data

How the results depend on the processing

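No paired analysis was possible because there is 1 group. A stricter list (the upper 50% of the final list by signal) gave 262 peaks, 254 genes, 54 genes of the lists, a median signal of 80.6 and 92.4% upstream. A 500 bp upstream window gave 34.1% of final peaks, a median of -186 bp and 89.2% upstream; a 2000 bp window gave 34.8% and -318 bp. Using every transcript's 5′ end gave 39.0%, and counting windows of all genes other than piRNA genes gave 30.7%, -207.5 bp and 89.6% upstream. Requiring the replicate summit within 100 bp lowered the share found in both replicates to 92.8%, and using 1446 peaks per replicate lowered it to 62.0%. GC content was 43.0% over 100 bp and 36.2% over 400 bp. With 1 replicate left out, by ranking the other alone, the number of peaks was 492 to 509 (34.0% to 35.2% of the list), the median position -238.5 to -233 bp, the share upstream 89.4% to 91.2%, genes 479 to 500, genes of the lists 78 to 88 and GC content 38.0% to 39.5%. The median signal was not computed there, since each replicate list has its own scale. Matching the strongest overlapping replicate peak, an alternative chosen after seeing the data, gave 326 members among the highest peaks of both replicates in place of 318. Unknown depth limits what the weakest peaks can show.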

Other observations

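A count of 6-base words on both strands, chosen after the values were seen, was made for the 200 bp around the summits. The words given are among those with the largest ratios of members to all coding promoters, so their contrasts are large by choice. GCGCGC was present in 60 members (11.4%), 2.96% of lower-signal peaks in 1 window and 2.53% of all coding promoters, and in 14.4% of final peaks in shared windows. GAGCGC was present in 16.5%, 5.23%, 3.77% and 22.0% in the same order, and GACGCA in 22.6%, 7.87%, 5.88% and 22.0%. The part of the higher GC content of members in these shares was not tested.

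Member genes were annotated more fully than coding genes as a whole: 471 of 514 (91.6%) had an annotated 5′ UTR, against 77.4%, and 21 (4.09%) had an uncharacterized product, against 9.33%. Of the member genes, 80 (15.6%) also had a lower-signal summit in their window alone, close to the 14.5% of all coding genes.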
